A study of Arabidopsis thaliana with 14 samples.

Results

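Genome-wide DNA methylation of the embryo was compared between 2 selfed strains of Arabidopsis thaliana, Ler and Cvi. The Ler embryo came from Ler plants pollinated with Ler, and the Cvi embryo from Cvi plants pollinated with Cvi, both dissected 6 days after pollination. These are 2 of the 14 samples of a whole-genome bisulfite sequencing series on embryo and endosperm of Col, Ler, Cvi and their crosses. No mutation or treatment was applied to either strain, and each library was made from the pooled seeds of many siliques of greenhouse plants. The labels name no replicate of either embryo, so each strain is represented by 1 library, no level below has a replicate error, and a strain cannot be told apart from its library. The genome is divided into windows of 300 nt that start every 200 nt, and a window was compared where both libraries had at least 15 calls in the CG or CHG context, or at least 50 calls in CHH. H stands for any base but G, and a call is 1 read of 1 cytosine. By this rule 188892 of 595735 windows on the 5 nuclear chromosomes (31.7%) were compared in CG, 215131 (36.1%) in CHG and 310616 (52.1%) in CHH.

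The 3 contexts are kept by different enzymes in plants, so a strain can differ in one and not in another. CG methylation is copied after replication by MET1 with the VIM proteins, and it is found both on transposons and, alone, inside the bodies of many transcribed genes. CHG methylation is maintained by CMT3, which binds the histone mark that SUVH4 deposits. CHH methylation is renewed by CMT2 in long heterochromatic elements and by RNA-directed DNA methylation (RdDM), in which small RNAs guide DRM2. Non-CG methylation is therefore mostly a mark of silenced elements, and the demethylases DME, ROS1, DML2 and DML3 remove methylation.

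The libraries differed in depth. Calls summed over windows were 35149159 in Ler and 8096343 in Cvi for CG, 39089741 in Ler and 8802062 in Cvi for CHG, and 178138590 in Ler and 49805342 in Cvi for CHH. The median compared window had 75 CG calls in Ler and 27 in Cvi, so single windows are less precise in Cvi. Chloroplast DNA, which is unmethylated in textbook accounts, gives the share of calls that remained unconverted. It was 0.0432% in Ler and 0.189% in Cvi for CG, 0.0504% in Ler and 0.213% in Cvi for CHG, and 0.150% in Ler and 0.137% in Cvi for CHH. CHG differences below 1 point are thus read against a background that was itself higher in Cvi. The calls of each window were compared by Fisher's exact test, two-sided, with Benjamini-Hochberg adjustment over all windows of the context. A window was called different at an adjusted p under 0.01 when the gap was also at least 35 points for CG or CHG, or 10 points for CHH. Such a test compares 2 libraries and not the strains. Neighbouring windows overlap, and calls of 1 read are not independent molecules, so the intervals below cover counting error only.

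Windows that differed most, among those with at least 30 calls (100 for CHH) and without extreme depth, show how complete the change could be at 1 place. They are given as the TAIR10.1 reference sequence from RefSeq, plus strand, with the sites of the context in capitals. In CG, the example higher in Ler lies at chr2:1716201-1716500 inside the gene AT2G04870, which encodes an uncharacterized protein, and 13 CG sites are in capitals.
AT2G04870: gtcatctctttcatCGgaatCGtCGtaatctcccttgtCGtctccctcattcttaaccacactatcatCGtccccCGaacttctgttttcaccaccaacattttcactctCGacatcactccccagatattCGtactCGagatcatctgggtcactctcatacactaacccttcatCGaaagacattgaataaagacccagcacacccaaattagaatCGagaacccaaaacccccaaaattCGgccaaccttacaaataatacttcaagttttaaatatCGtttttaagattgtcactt
In this window 42 of 42 calls were methylated in Ler (Wilson 95% interval 91.6% to 100%) and 0 of 61 in Cvi, which allows a share of up to 4.92%. This limit, like those given below for counts of 0, is 3 divided by the number of calls. It is a one-sided 95% limit and not a Wilson bound. CHG methylation at the same place was 56.5% in Ler and 0% in Cvi. The Ler window thus carried both marks.

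For CHG and CHH the examples lie within 1 kb upstream of a gene. The CHG window higher in Ler, at chr2:780001-780300 and 215 nt upstream of AT2G02770, a gene annotated for a phosphopantetheinyl transferase domain protein, has its 4 CHG sites in capitals.
AT2G02770: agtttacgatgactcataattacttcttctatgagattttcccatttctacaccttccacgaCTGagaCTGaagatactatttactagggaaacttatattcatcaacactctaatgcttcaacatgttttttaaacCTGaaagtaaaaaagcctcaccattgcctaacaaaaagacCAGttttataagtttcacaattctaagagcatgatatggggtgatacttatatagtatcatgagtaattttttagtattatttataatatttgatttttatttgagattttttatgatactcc
It was methylated at 92.5% of 40 calls in Ler (80.1% to 97.4%) and at 0 of 35 in Cvi, which allows up to 8.57%. The CHG window higher in Cvi lies at chr5:10527801-10528100, 235 nt upstream of FRS10, a member of the FAR1-related family of transposase-derived proteins.
FRS10: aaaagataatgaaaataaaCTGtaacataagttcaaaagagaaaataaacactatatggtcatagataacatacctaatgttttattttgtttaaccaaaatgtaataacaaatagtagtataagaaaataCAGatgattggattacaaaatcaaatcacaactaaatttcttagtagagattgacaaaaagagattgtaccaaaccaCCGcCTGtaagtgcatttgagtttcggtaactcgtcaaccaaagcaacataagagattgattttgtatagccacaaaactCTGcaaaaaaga
It was unmethylated at all 61 calls in Ler, which allows up to 4.92%, and methylated at 87.1% of 31 calls in Cvi (71.1% to 94.9%). In the CHH windows the capitals mark each CHH cytosine, as C on the plus strand or as G where the cytosine is on the minus strand. The window higher in Ler, at chr1:23424601-23424900 and 687 nt upstream of the replication factor gene RFC2, was methylated at 83.3% of 192 calls in Ler (77.4% to 87.9%) and at 3.31% of 121 in Cvi (1.29% to 8.19%).
RFC2: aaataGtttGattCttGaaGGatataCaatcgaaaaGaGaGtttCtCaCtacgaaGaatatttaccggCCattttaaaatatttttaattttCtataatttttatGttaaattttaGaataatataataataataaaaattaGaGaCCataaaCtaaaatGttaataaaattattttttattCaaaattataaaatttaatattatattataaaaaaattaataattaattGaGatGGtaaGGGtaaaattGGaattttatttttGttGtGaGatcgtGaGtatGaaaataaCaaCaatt
The window higher in Cvi, at chr1:17619601-17619900 and 590 nt upstream of the hexokinase gene HXK3, was methylated at 2.92% of 137 calls in Ler (1.14% to 7.27%) and at 79.0% of 119 in Cvi (70.8% to 85.3%).
HXK3: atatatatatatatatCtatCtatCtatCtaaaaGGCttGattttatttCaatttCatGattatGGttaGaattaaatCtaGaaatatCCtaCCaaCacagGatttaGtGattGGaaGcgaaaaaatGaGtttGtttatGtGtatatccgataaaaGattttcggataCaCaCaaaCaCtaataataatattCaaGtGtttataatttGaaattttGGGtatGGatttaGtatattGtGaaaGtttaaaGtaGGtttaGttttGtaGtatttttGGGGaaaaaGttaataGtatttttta

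CG methylation was higher in the Ler embryo, and most of the difference lay inside protein-coding genes. The mean over compared windows was 20.8% in Ler and 15.7% in Cvi, a difference of 5.11 points, with 4.73 to 5.34 points on the 5 chromosomes. With calls pooled over windows, so that deep windows weigh more, the difference was 2.33 points. Over gene bodies it was 14.2% in Ler and 7.22% in Cvi, a difference of 7.01 points (6.41 to 7.33 on the 5 chromosomes). Outside annotated genes the levels were 24.0% in Ler and 21.98% in Cvi, and over pseudogenes, which here include many transposon genes, 76.7% in Ler and 72.8% in Cvi. Windows with at least 20% CG methylation made up 27.3% of windows in Ler and 19.9% in Cvi. When each window was thinned to the smaller of its call numbers in the embryos, these shares were 27.2% in Ler and 19.9% in Cvi. Fisher's exact test called 14994 windows higher in Ler (7.94% of those tested) and 3337 higher in Cvi (1.77%). Gene bodies held 11637 of the windows higher in Ler and 1672 of those higher in Cvi. At 10941 of the windows higher in Ler (73.0%) no call was methylated in Cvi, whereas at 1573 of the windows higher in Cvi (47.1%) no call was methylated in Ler, the deeper library.

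Mean CHG and CHH methylation were higher in the Cvi embryo, although more single windows were higher in Ler. Mean CHG methylation was 7.48% in Ler and 8.09% in Cvi, a difference of -0.612 points with -0.848 to -0.398 on the 5 chromosomes. Mean CHH methylation was 2.01% in Ler and 2.27% in Cvi, a difference of -0.265 points (-0.365 to -0.215). With calls pooled over windows the differences were -2.18 points in CHG and -0.928 points in CHH. Single windows were higher in Ler at 25.2% and higher in Cvi at 17.4% of CHG windows, and higher in Ler at 45.5% and higher in Cvi at 32.8% of CHH windows, and the median CHH window was at 0.325% in Ler and 0% in Cvi. These shares depend on depth, since CHH windows with no methylated call made up 32.3% in Ler and 57.5% in Cvi, but 58.1% in Ler and 58.2% in Cvi after thinning. In CHG, 1614 windows were called higher in Ler (0.750%) and 2040 higher in Cvi (0.948%). In CHH, 2184 were called higher in Ler (0.703%) and 4716 higher in Cvi (1.52%). Each mean kept its order on every chromosome. In gene bodies the non-CG levels were low in both libraries. CHG was 1.37% in Ler and 1.60% in Cvi there, a difference of -0.235 points, and CHH was 0.575% in Ler and 0.663% in Cvi. Unconverted CHG calls of chloroplast DNA were 0.0504% in Ler and 0.213% in Cvi, and their part in the CHG difference was not tested. Outside annotated genes CHG was 13.1% in Ler and 14.4% in Cvi, and CHH was 3.51% in Ler and 4.03% in Cvi. Most CHH windows called in either direction lay there, 1469 of those higher in Ler and 3160 of those higher in Cvi. Pseudogenes were an exception to the order of the calls in CHG. Their mean was 55.3% in Ler and 57.7% in Cvi, but 414 of their windows were called higher in Ler and 311 higher in Cvi.

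**Figure D1:**
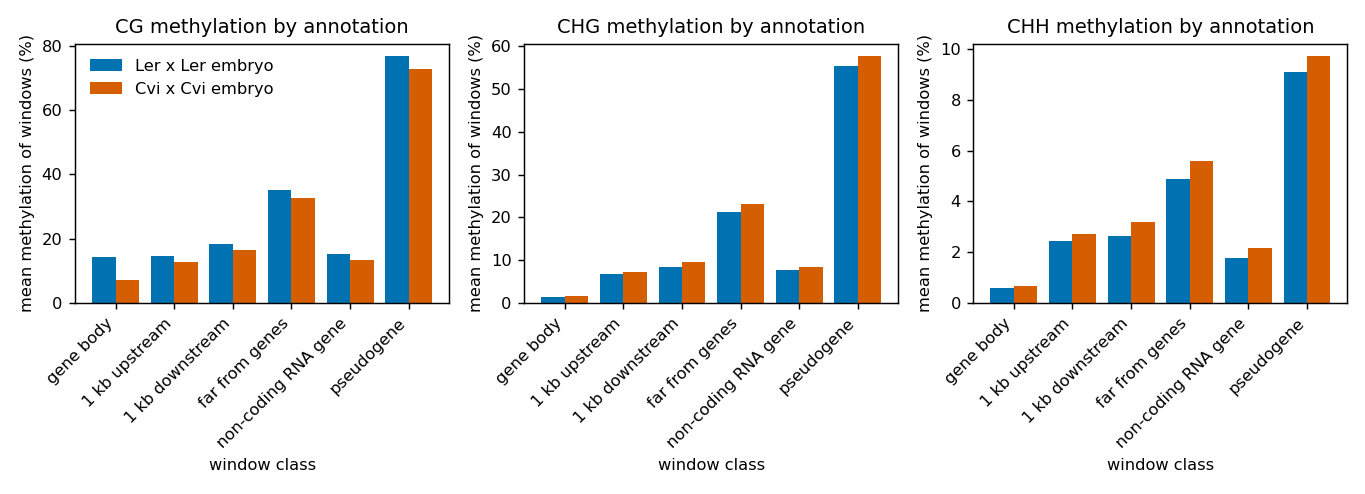
Mean methylation (%) of compared windows in the Ler x Ler embryo (blue) and the Cvi x Cvi embryo (orange) by class of window, for CG, CHG and CHH, 1 library a strain and so without error bars; upstream and downstream windows lie within 1 kb of a protein-coding gene and in no gene. The widest CG gap is that of gene bodies, with 14.2% in Ler and 7.22% in Cvi, while CHG and CHH are higher in Cvi in each class shown.

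Next to genes the strains differed less in CG and in the same direction. Within 1 kb upstream of protein-coding genes CG was 14.5% in Ler and 12.8% in Cvi, CHG 6.66% in Ler and 7.22% in Cvi, and CHH 2.45% in Ler and 2.74% in Cvi. Within 1 kb downstream CG was 18.2% in Ler and 16.5% in Cvi, CHG 8.30% in Ler and 9.54% in Cvi, and CHH 2.65% in Ler and 3.18% in Cvi. Farther than 1 kb from any protein-coding gene CHG was 21.2% in Ler and 23.1% in Cvi, and CHH was 4.87% in Ler and 5.61% in Cvi. In these distal windows 691 were called higher in Ler and 1687 higher in Cvi in CHH.

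Along the gene the CG difference grew towards the 3′ part. In a profile over 23067 protein-coding genes of at least 1000 nt, both strains were nearly unmethylated near the start, at 2.06% in Ler and 1.84% in Cvi in the first bin, centred at 2.5% of the body. At 12.5% of the body the levels were 3.81% in Ler and 2.74% in Cvi. The level peaked at 62.5% of the body in both strains, at 27.6% in Ler and 13.0% in Cvi. The widest gap was at 72.5% of the body, with 26.7% in Ler and 10.8% in Cvi, and there 21.9% of windows were called higher in Ler and 1.68% higher in Cvi. Methylation thus declined earlier along the gene in Cvi, and at 87.5% of the body it was 17.5% in Ler and 5.96% in Cvi. CHG and CHH showed no such profile, with levels in mid-body (52.5%) of 1.16% in Ler and 1.42% in Cvi for CHG and of 0.481% in Ler and 0.591% in Cvi for CHH.

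**Figure D2:**
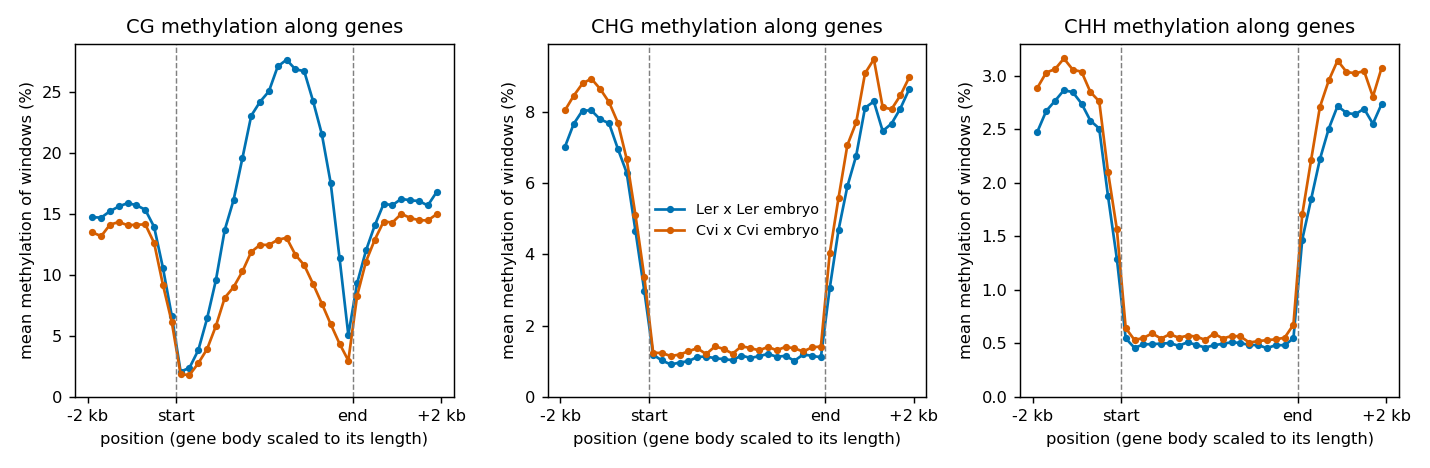
Mean methylation (%) of compared windows along protein-coding genes of at least 1000 nt, with bodies scaled to their length (20 bins between the dashed lines) and 2 kb of flank on either side in 10 bins of 200 nt, for the Ler x Ler embryo (blue) and the Cvi x Cvi embryo (orange). The CG curves separate within the body, by 15.9 points at 72.5% of its length, and the CHG and CHH curves lie slightly higher in Cvi throughout the flanks.

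Gene by gene, CG-only body methylation was far more frequent in Ler. A gene with at least 3 compared windows in both CG and CHG was placed by its mean body levels, and 16713 genes could be placed. CG-only methylation, meaning at least 20% CG and under 5% CHG, was found in 3897 genes in Ler (23.3%) and in 1298 genes in Cvi (7.77%). It was shared by 1097 genes, whose CG averaged 41.4% in Ler and 30.3% in Cvi, so that the level was lower in Cvi even where the mark was present in both. A further 1309 genes were CG-only methylated in Ler and under 5% in Cvi, at 31.0% in Ler and 0.927% in Cvi on average. The reverse was seen in 51 genes, at 1.31% in Ler and 27.2% in Cvi. CG methylation was under 5% in both strains in 8515 genes. The CG-only genes of Ler that fell under 5% in Cvi were shorter, at a median of 3131 nt against 4407 nt for the shared ones. Among genes CG-only in Ler, 57.0% of the 616 genes of 1500 to 2500 nt were under 5% in Cvi, and 19.1% of the 1695 genes of at least 4000 nt. The share also fell with the level in Ler, being 46.6% where Ler had 20% to 30% CG methylation and 12.0% where it had over 60%. A fixed limit of 5% is reached less easily from a higher Ler level. Mean CG in Cvi was 0.377 times that in Ler in the first of these groups and 0.435 times in the last. Shorter genes hold fewer windows, so that their means are less precise.

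The genes with the widest CG-only differences show the pattern in full. ATX2, which encodes a trithorax-like histone methyltransferase, had 83.99% CG methylation in Ler and 6.51% in Cvi over 6 windows, all 6 of them called, with CHG of 0.448% in Ler and 0.109% in Cvi. AT5G23490, an uncharacterized gene, had 85.6% in Ler and 4.17% in Cvi over 6 windows. INT3, an inositol transporter gene, had 75.8% in Ler and 2.21% in Cvi over 5 windows, and the cysteine protease gene AT1G09730 had 69.4% in Ler and 0% in Cvi over 6 windows. In the other direction the widest differences were smaller. The F-box gene AT3G22421 had 5.00% in Ler and 41.3% in Cvi, RER1, a gene of the reticulata-related family, had 0.860% in Ler and 33.5% in Cvi, AT3G05935 had 0% in Ler and 31.2% in Cvi, and the Spt6-like gene AT1G63210 had 11.1% in Ler and 42.0% in Cvi.

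The genes with the most CG windows higher in Ler were long ones with moderate levels. AT1G48090, a lipid-binding protein gene, held 14 windows called higher in Ler and 1 higher in Cvi, with body levels of 56.1% in Ler and 23.9% in Cvi. AT2G17930, a kinase-related gene with a FAT domain, held 13 higher in Ler and 2 higher in Cvi, at 61.6% in Ler and 33.5% in Cvi, and the midasin-like gene AT1G67120 held 11 higher in Ler and 0 higher in Cvi, at 56.0% in Ler and 32.8% in Cvi. AT2G36810, an ARM repeat gene, held the most, 22, at 38.4% in Ler and 8.25% in Cvi, but its Cvi windows were 9.26 times as deep as the median Cvi window and those of Ler 1.29 times as deep as the median Ler window, and the part of this depth in the result was not tested.

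Where CG methylation was near saturation in both strains, non-CG methylation was higher in Cvi. In 18997 windows with at least 80% CG methylation in both embryos, mean CG was 92.4% in Ler and 92.7% in Cvi. In those of them that were compared in the other contexts, CHG was 54.8% in Ler and 59.9% in Cvi, a difference of -5.11 points (-5.36 to -4.87 on the 5 chromosomes), and CHH was 11.5% in Ler and 13.2% in Cvi. Among them 66 CHG windows were called higher in Ler and 248 in Cvi, and 360 CHH windows in Ler and 1136 in Cvi. The order held in each class of annotation. CHG in such windows was 38.6% in Ler and 43.3% in Cvi for protein-coding genes, 63.6% in Ler and 68.0% in Cvi in pseudogenes, and 51.8% in Ler and 57.6% in Cvi outside annotated genes. In windows with under 5% CG methylation in both, CHG was 0.334% in Ler and 0.381% in Cvi and CHH 0.331% in Ler and 0.369% in Cvi. Windows that reached 80% CHG methylation made up 1.19% in Ler and 2.63% in Cvi, or 1.57% in Ler and 2.67% in Cvi after the same thinning, and windows that reached 60% made up 6.17% in Ler and 7.30% in Cvi after thinning.

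The means kept this order at each distance from the centromere, with CG higher in Ler and CHG and CHH higher in Cvi. Within 1 Mb of the centromere midpoint CG was 76.9% in Ler and 72.5% in Cvi, CHG 50.05% in Ler and 53.5% in Cvi, and CHH 8.96% in Ler and 10.3% in Cvi, with 232 CHH windows called higher in Ler and 776 higher in Cvi. Near the centromere CHG calls ran the other way, with 229 higher in Ler and 217 higher in Cvi within 1 Mb, 385 in Ler and 307 in Cvi from 1 to 2 Mb, and 328 in Ler and 315 in Cvi from 2 to 3 Mb. Beyond 8 Mb CG was 10.3% in Ler and 5.73% in Cvi, CHG 1.35% in Ler and 1.54% in Cvi, and CHH 0.757% in Ler and 0.832% in Cvi. CG in gene bodies was 45.3% in Ler and 33.3% in Cvi within 1 Mb of the midpoint, and 11.8% in Ler and 5.55% in Cvi beyond 8 Mb.

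**Figure D3:**
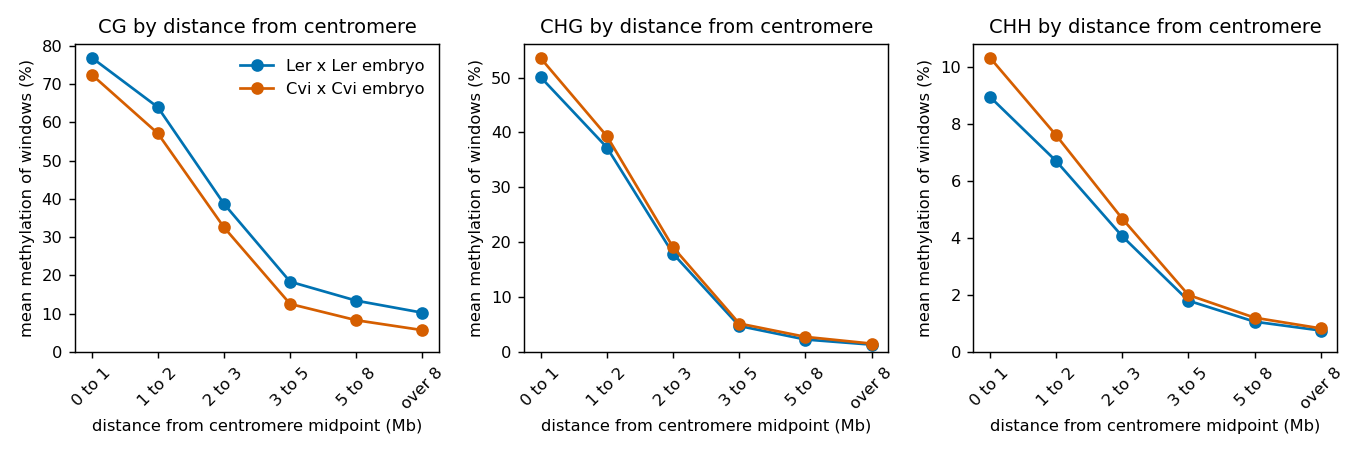
Mean methylation (%) of compared windows by distance from the centromere midpoint (Mb) in the Ler x Ler embryo (blue) and the Cvi x Cvi embryo (orange), for CG, CHG and CHH. In the bin nearest the centromere CG is 76.9% in Ler and 72.5% in Cvi while CHH is 8.96% in Ler and 10.3% in Cvi, and both orders hold in each bin.

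The CG differences of the strains were not of 1 kind. In windows compared in all 3 contexts, 8365 gene-body windows were called higher in Ler in CG, with means of 67.8% in Ler and 5.73% in Cvi. They had little CHG methylation in Ler, at 3.09% in Ler and 0.616% in Cvi, and 93.7% of them were under 5% CHG in Ler (Wilson 95% interval 93.1% to 94.2%). The 1137 gene-body windows called higher in Cvi in CG, at 10.6% in Ler and 75.4% in Cvi, had CHG of 1.23% in Ler and 22.1% in Cvi and CHH of 0.589% in Ler and 4.08% in Cvi. CHG methylation reached 20% in the more methylated strain in 5.01% of the windows higher in Ler (4.56% to 5.50%) and in 38.2% of those higher in Cvi (35.4% to 41.0%). In number these windows were alike, 419 for Ler and 434 for Cvi, whereas windows under 5% CHG in the more methylated strain numbered 7836 for Ler and 613 for Cvi. Likewise, of all gene-body windows with at least 50% CG methylation, 1565 of 11375 reached 20% CHG methylation in Ler (13.8%) and 1665 of 5187 did in Cvi (32.1%). Seen from CHG, 90.6% of the 970 windows called higher in Ler were also called in CG in the same direction, and 66.5% of the 1222 called higher in Cvi. The CHH windows higher in Cvi were often well methylated in CG in both strains, at 61.0% in Ler and 81.7% in Cvi, and of these 1590 windows 415 (26.1%) were also called higher in Cvi in CG and 31 were called higher in Ler.

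**Figure D4:**
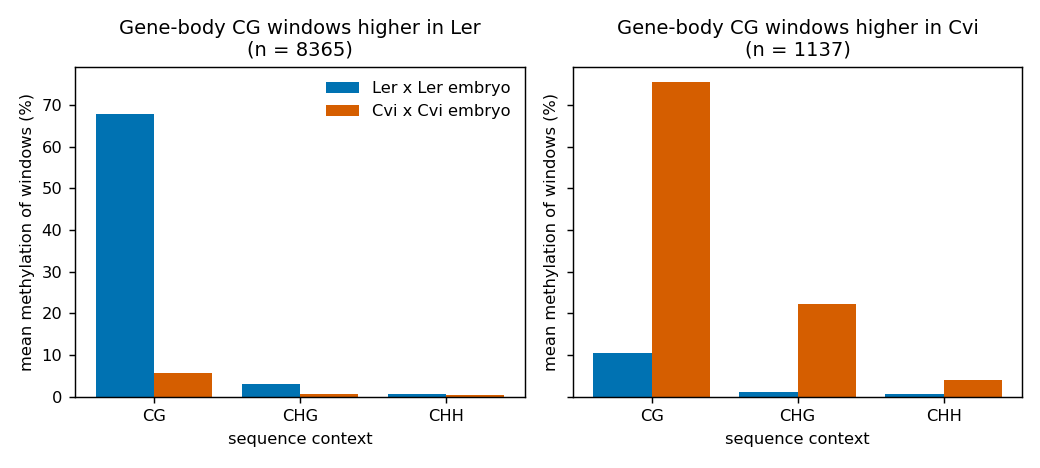
Mean CG, CHG and CHH methylation (%) in the Ler x Ler embryo (blue) and the Cvi x Cvi embryo (orange) at gene-body windows called in CG, left for 8365 windows higher in Ler and right for 1137 windows higher in Cvi, which were chosen on their CG values. CHG in the more methylated strain is 3.09% in Ler on the left and 22.1% in Cvi on the right.

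Whole genes with CHG methylation in 1 strain were few and occurred in both directions. Body CHG was at least 20% in Ler and under 5% in Cvi in 63 genes, at least 20% in Cvi and under 5% in Ler in 87, and at least 20% in both in 198, where it averaged 52.6% in Ler and 56.6% in Cvi. Among genes methylated in Ler, ABCC15, a transporter gene of the multidrug resistance-associated family, had CG of 93.7% in Ler and 0% in Cvi, CHG of 78.3% in Ler and 0.429% in Cvi, and CHH of 13.2% in Ler and 0% in Cvi. RKF2, a receptor-like kinase gene, had CHG of 72.6% in Ler and 6.42% in Cvi, the ankyrin repeat gene AT4G05040 had 69.7% in Ler and 0% in Cvi, and the RNA helicase gene AT2G07750 had 60.5% in Ler and 1.55% in Cvi. AT3G22580, a lipid-transfer protein gene, had 85.7% in Ler and 6.45% in Cvi over 3 windows. UMAMIT27, of a family of amino acid transporters, held 7 CHH windows called higher in Ler, at 13.8% in Ler and 0.963% in Cvi. AT5G62110, a homeodomain-like gene, held the most CHH windows higher in Ler, 11, at 20.7% in Ler and 6.87% in Cvi. Unlike the genes above it was methylated in both strains, with CHG of 61.5% in Ler and 41.5% in Cvi and CG of 71.2% in Ler and 47.9% in Cvi. The transcription factor gene AT2G13640 had CHG of 72.7% in Ler and 0% in Cvi over 3 windows, and AT1G27555, where Ler was 5.95 times its median depth, had 74.5% in Ler and 0% in Cvi.

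Among genes methylated in Cvi, the disease resistance gene AT1G51480 had CG of 0% in Ler and 96.3% in Cvi and CHG of 0% in Ler and 89.1% in Cvi. AT5G38340, a disease resistance gene of the TIR-NBS-LRR class, was called higher in Cvi in all 12 of its CG windows, at 8.08% in Ler and 90.5% in Cvi, with CHG of 0.134% in Ler and 50.4% in Cvi. AT5G25920, an uncharacterized gene, had CHG of 0% in Ler and 70.5% in Cvi, and AT2G34320, a ribonuclease H-like gene, had CHG of 0.461% in Ler and 76.7% in Cvi and CHH of 0.214% in Ler and 21.6% in Cvi. AT5G02360, a DC1 domain gene, had CHG of 0.538% in Ler and 89.3% in Cvi, and AT3G55860 had CHH of 0.374% in Ler and 16.2% in Cvi. In the formin gene AT2G25050, 19 CHG windows were higher in Cvi, at 0.635% in Ler and 67.02% in Cvi, although its CG was already 51.2% in Ler, against 91.9% in Cvi. DMT2, a relative of MET1, held 2 CG windows higher in Ler and 10 higher in Cvi, with CG of 11.1% in Ler and 65.3% in Cvi and CHG of 3.59% in Ler and 27.7% in Cvi. Depth was uneven at others. GLR2.3, a glutamate receptor-like gene with close relatives, had CHG of 10.4% in Ler and 69.2% in Cvi, with Cvi windows 5.96 times as deep as the Cvi median and Ler windows at 0.659 times the Ler median. AT1G27570, a kinase gene with CHG of 0.329% in Ler and 69.3% in Cvi, was covered in Ler at 5.74 times the median and in Cvi at 1.61 times.

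The longest stretches of called windows were also read as single loci. In CG, 7 windows in a row were higher in Ler at 3 places, each spanning 1500 nt. At chr2:1835001-1836500, over the transcribed pseudogene AT2G05115, CG was 92.9% in Ler and 0% in Cvi and CHG 67.6% in Ler and 0% in Cvi. The longest CHH runs higher in Ler were 2 of 1900 nt. At chr5:21143201-21145100, over AT5G00650, CHH was 18.1% in Ler and 0% in Cvi. The other, at chr4:17756401-17758300, ran up to the start of MYB87, a gene for a myb transcription factor, and had CHH of 18.4% in Ler and 0.102% in Cvi and CG of 93.5% in Ler and 0.667% in Cvi. A CHH run of 1300 nt higher in Cvi, at chr1:13905001-13906300 in no annotated gene, had CHH of 9.53% in Ler and 42.8% in Cvi, while CG was 86.7% in Ler and 88.2% in Cvi. The longest CG run higher in Cvi spanned 2700 nt at chr3:7743801-7746500. It belongs to a cluster of 6 genes from AT3G21960 to AT3G21990, 3 of them annotated as cysteine-rich repeat secretory (DUF26) proteins, whose bodies had CG between 0.353% and 2.97% in Ler and between 58.8% and 94.7% in Cvi. The next gene, AT3G22000, also a DUF26 gene, had no compared CG window, and its 1 compared CHG window had 0% in both strains. The 200 kb around it held the highest count of CG windows called higher in Cvi in any such block, 65 of 393. Relative to the median window, depth in these 6 genes was 0.598 to 1.06 in Ler and 1.17 to 9.96 in Cvi. In the endosperm 5 of them, each with 1 to 4 compared windows, had CG of 0% to 2.31% in Ler and 24.97% to 83.4% in Cvi. AT3G21990, the gene of lowest depth in Cvi among the 6, had CG of 0% in both over 2 windows. Its CHG in the endosperm was 0% in Ler and 16.6% in Cvi over 4 windows. Whether Cvi holds further copies was not tested. The longest CHG run, 3100 nt higher in Cvi, covered the F-box gene AT4G27050 with CHG of 0.183% in Ler and 59.4% in Cvi, where depth was 3.03 times the median in Ler and 10.98 times in Cvi.

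F-box genes held CHG and CHH windows higher in Cvi more often than the average gene did. F-box proteins are the substrate-binding subunits of SCF ubiquitin ligases, and the family is large and rapidly duplicating in Arabidopsis. Of 626 genes annotated as F-box with a CHG window tested in the body or within 1 kb, 19 held a window higher in Ler (3.04%) and 76 a window higher in Cvi (12.1%). Over all 26690 protein-coding genes tested these shares were 2.23% for Ler and 3.35% for Cvi. In CHH, 29 of 637 F-box genes held a window higher in Ler (4.55%) and 97 a window higher in Cvi (15.2%), against 4.08% for Ler and 7.86% for Cvi over all genes. In CG, 146 of 624 held a window higher in Ler (23.4%) and 104 higher in Cvi (16.7%), against 32.2% for Ler and 8.47% for Cvi. Mean CG over F-box bodies was 10.2% in Ler and 12.0% in Cvi, whereas over all protein-coding genes it was 11.6% in Ler and 6.19% in Cvi. The median F-box body had CHG of 0.206% in Ler and 0% in Cvi, so the excess came from a minority of members.

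This minority consisted of 47 F-box genes with a CHG window called higher in Cvi inside the body, of 546 with a tested body window (8.61%), where the share over all genes was 1.37%. Since they were chosen by their CHG calls, their levels are a description. Their median CHG was 0.347% in Ler and 57.3% in Cvi, with median CG of 2.03% in Ler and 86.4% in Cvi and median CHH of 0.325% in Ler and 5.66% in Cvi. On chromosome 3 there were 20 of 155 tested F-box genes, on chromosome 1 there were 14 of 148, on chromosome 5 there were 6 of 108, on chromosome 2 there were 5 of 66 and on chromosome 4 there were 2 of 69. The annotation gives an F-box associated domain or family for 33 of the 47, a trait noticed after their values were seen. These were 33 of 201 such genes with a tested body window (16.4%), and the remaining 14 were of 345 other F-box genes (4.06%). EDA1, for example, had CHG of 0.269% in Ler and 60.5% in Cvi, AT3G22350 had 0.794% in Ler and 63.4% in Cvi, and AT1G47810 had 0% in Ler and 66.0% in Cvi. Their depth was not raised, with a median of 0.927 times the median window in Ler and 0.889 times in Cvi, and 2 of the 47 were over 2 times the median in Cvi. With the windows of the top 1% of depth in either library left out, an alternative chosen after seeing the data, 75 of 624 F-box genes still held a CHG window higher in Cvi. Of the 42 with a window compared in the endosperm, 40 were higher in the Cvi endosperm, with mean CHG of 3.26% in the Ler endosperm and 34.8% in the Cvi endosperm. The Col embryo had under 5% CHG at 33 of the 47. F-box genes share sequence with their relatives, so how reads were divided among copies remains uncertain.

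**Figure D5:**
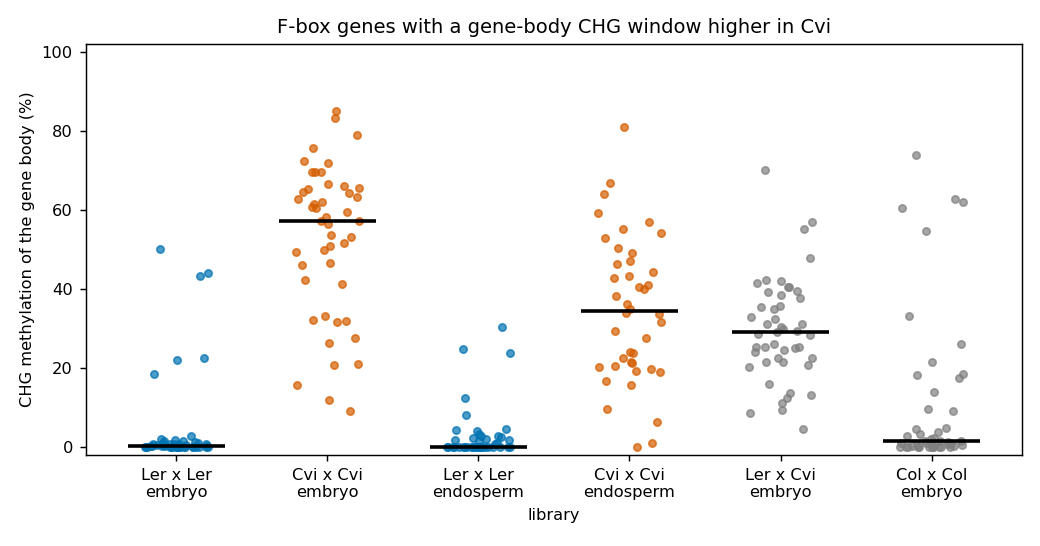
CHG methylation (%) of the gene body of 47 F-box genes chosen because a window in the body was called higher in Cvi, 1 point a gene with the median as a black line, in the Ler and Cvi embryos, the Ler and Cvi endosperms, the Ler x Cvi embryo and the Col embryo. The embryo medians are 0.347% in Ler and 57.3% in Cvi, and the endosperms of the strains, which the choice did not use, are separated in the same direction.

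Genes that set and read methylation were among those with called windows. A long gene with many compared windows can more easily hold a called one. The shares of this list and of the lists below were not adjusted for that. Of 13 genes for maintenance tested in CG, 8 held a window higher in Ler (61.5%) and 2 a window higher in Cvi (15.4%), where the shares over all protein-coding genes were 32.2% for Ler and 8.47% for Cvi. CMT2 held 9 CG windows higher in Ler, at 48.3% in Ler and 4.34% in Cvi. SUVH4 had CG of 36.1% in Ler and 0.552% in Cvi, SUVH5 29.9% in Ler and 0.220% in Cvi, SUVH6 28.4% in Ler and 0% in Cvi, and MET1 14.8% in Ler and 1.37% in Cvi. ORTHL, a relative of the VIM genes, had 44.6% in Ler and 0% in Cvi, and IBM1, the demethylase of the histone mark read by CMT3, had 31.6% in Ler and 19.9% in Cvi. CHR1, known as the chromatin remodeller DDM1, went the other way with 0.626% in Ler and 12.9% in Cvi. VIM3, which has near-identical relatives, had 11.2% in Ler and 9.95% in Cvi and held 1 window in each direction. CMT3 held no called window, with CG of 0.181% in Ler and 0.278% in Cvi.

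Of 20 RdDM genes, 13 held a CG window higher in Ler and 4 a CG window higher in Cvi. DCL3, which cuts the small RNA precursors, had 82.8% in Ler and 34.0% in Cvi, and DRD1, a remodeller, had 67.1% in Ler and 9.03% in Cvi. NRPD1A, the largest subunit of RNA polymerase IV, had 56.8% in Ler and 24.6% in Cvi, and HEN1, which methylates small RNAs, had 52.5% in Ler and 16.0% in Cvi. SUVH2, which recruits RNA polymerase V, had 0.397% in Ler and 16.1% in Cvi, with 1 window at 3.17% of 63 calls in Ler and 91.7% of 48 calls in Cvi. Upstream windows of NRPD2A, MET1 and DCL3 were CHH-methylated in Cvi and hardly in Ler. Upstream of NRPD2A, which encodes the subunit shared by polymerases IV and V, 3 overlapping windows had CHH between 0.412% and 0.855% in Ler and between 17.6% and 46.5% in Cvi. Upstream of MET1 a window had 0.990% of 505 calls in Ler and 17.4% of 322 in Cvi, and upstream of DCL3 2 windows had 2.66% and 3.19% in Ler and 47.5% and 22.2% in Cvi. Downstream of DMS3, another RdDM factor, the opposite was found, with 5 windows of 87.5% to 100% CG in Ler and 0% in Cvi. Of the 4 demethylase genes, DME had 22.1% in Ler and 12.5% in Cvi and DML1, known as ROS1, had 30.4% in Ler and 43.6% in Cvi. CHH at the 5′ end of DML1 was 15.6% and 23.4% in 2 windows in Ler and 31.5% and 52.9% in Cvi. These counts stand beside the same shares over all genes, 32.2% for Ler and 8.47% for Cvi, which were not matched for gene length. No list was tested as a whole.

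A list of 10 genes, most of them known for natural or induced epialleles, differed in both directions. Of these 10 genes, 2 held a CG window higher in Ler and 5 higher in Cvi, against 32.2% for Ler and 8.47% for Cvi over all genes. In CHH 1 held a window higher in Ler and 6 did in Cvi, against 4.08% for Ler and 7.86% for Cvi. Among the 7 that are not PAI copies, 2 held a CG window higher in Ler and 2 higher in Cvi. All 3 PAI genes, which encode a tryptophan synthesis enzyme and are silenced by an inverted repeat in some strains, were methylated in all contexts in Cvi. PAI1 had CG of 1.65% in Ler and 72.6% in Cvi, CHG of 0% in Ler and 64.1% in Cvi and CHH of 0.485% in Ler and 12.1% in Cvi. PAI2 had CHG of 0% in Ler and 68.8% in Cvi, and PAI3 had 0.772% in Ler and 69.1% in Cvi. In PAI1 all 9 called CHG windows had 0 methylated calls in Ler and were between 55% and 77.4% methylated in Cvi. The 3 genes are nearly identical copies, so reads may not belong to the copy they were placed on. QQS, a young gene of starch metabolism, was higher in Ler, with CG of 94.2% in Ler and 2.94% in Cvi and CHG of 55.1% in Ler and 0% in Cvi. HPA1, a histidine synthesis gene, had 2 windows with 18 of 18 calls methylated in Cvi, against 6.06% of 33 and 2.74% of 73 calls in Ler. Its window 637 nt upstream was called the other way, at 49.2% of 185 calls in Ler and 0% of 34 in Cvi. HPA1 is a duplicate of HISN6B, so here too reads may not belong to the copy they were placed on. ALN, encoding allantoinase, had a window 649 nt upstream with CG of 0% of 54 calls in Ler and 89.6% of 48 in Cvi. SDC, silenced through tandem repeats in its promoter, had similar CG, 50.0% in Ler and 47.2% in Cvi, but 2 windows at its 5′ end had CHH of 18.4% and 10.0% in Ler and 46.7% and 82.4% in Cvi. DOG1, FLC and HISN6B held no called window, but in the body of HISN6B only 1 CG window and 0 CHG windows were compared.

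Genes followed in the study for imprinting were included as a list that it chose on samples of this series, so their counts are not independent. Of its 12 allele-specific candidates, 7 held a CG window higher in Ler (58.3%) and 2 higher in Cvi (16.7%), and of the 5 genes of its locus-specific assays, 4 higher in Ler and 1 higher in Cvi, where all genes had 32.2% for Ler and 8.47% for Cvi. HDG9, a homeodomain leucine zipper gene, differed in both directions within a short stretch at its 5′ end. Its windows at chr5:5706801-5707100 and chr5:5707001-5707300 had CG of 11.1% and 12.5% in Ler and 100% in Cvi, while the next ones, chr5:5707201-5707500 and chr5:5707401-5707700, had 78.2% and 95.9% in Ler and 0% in Cvi. YUC10, an auxin synthesis gene, had 32.4% in Ler and 1.68% in Cvi, ARF6, an auxin response factor gene, had 40.9% in Ler and 23.5% in Cvi, and AT4G00750, a methyltransferase gene, had 75.4% in Ler and 0% in Cvi over 2 windows. The 8 seed storage protein genes, which are strongly expressed in maturing embryos, held no called window in any context, and their body CG was at most 0.658% in Ler and 1.52% in Cvi. Of 104 ribosomal protein genes 24 held a CG window higher in Ler (23.1%) and 4 higher in Cvi (3.85%), of 73 AGAMOUS-like genes 20 (27.4%) and 11 (15.1%), and of 40 disease resistance genes 12 (30.0%) and 6 (15.0%), against the same shares over all genes.

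The endosperms of the same strains were used to ask whether the embryo windows differed likewise in other libraries. In CG, 7012 windows called higher in the Ler embryo were also compared in the endosperm, and 6721 of them (95.8%) were higher in the Ler endosperm, which had 53.5% on average against 6.93% in the Cvi endosperm. Of 1688 windows called higher in the Cvi embryo, 1450 (85.9%) were higher in the Cvi endosperm, with means of 9.39% in the Ler endosperm and 34.3% in the Cvi endosperm, where the embryos had 11.5% in Ler and 79.4% in Cvi. For CHG the shares in the same direction were 93.0% of 960 windows higher in Ler and 90.0% of 1088 higher in Cvi, and in CHH 72.6% of 1736 higher in Ler and 64.3% of 3583 higher in Cvi. Over all windows compared in both tissues, 29.3% were higher in the Ler endosperm and 17.1% in the Cvi endosperm in CG. These shares were 16.6% for Ler and 26.7% for Cvi in CHG, and 37.0% for Ler and 39.9% for Cvi in CHH. The remaining windows were equal. By the same exact test the endosperm pair had 14270 CG windows higher in Ler (7.51%) and 983 higher in Cvi (0.517%), 514 CHG windows higher in Ler (0.236%) and 562 higher in Cvi (0.258%), and 1203 CHH windows higher in Ler (0.385%) and 983 higher in Cvi (0.315%). Among the windows printed above, the endosperms had CG of 33.3% in Ler and 0% in Cvi at AT2G04870. CHG upstream of AT2G02770 was 63.6% of only 11 calls in the Ler endosperm, below the minimum of 15, and 0% of 32 in the Cvi endosperm, and the Ler x Cvi embryo had 6.25% of 32 calls there. CHG upstream of FRS10 was 0% of 24 calls in Ler and 12.9% of 70 in Cvi. CHH upstream of RFC2 was 18.5% in Ler and 1.47% in Cvi, and upstream of HXK3 it was 0% in Ler and 5.56% in Cvi. Each of these kept the direction of the embryo with a smaller difference. The depths were reversed there, with 8763800 CG calls in the Ler endosperm and 21029487 in the Cvi endosperm.

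Some gene-level differences of the embryo were not seen in the endosperm means. Those means were taken over the windows compared in the endosperm, which need not be the windows compared in the embryo. Gene-body CG windows compared in both tissues mostly kept their direction. This held at 81.8% of 681 windows called higher in the Cvi embryo, with 11.8% in the Ler endosperm and 35.9% in the Cvi endosperm. It held at 95.8% of 4869 windows called higher in the Ler embryo. The 51 genes with CG-only methylation in the Cvi embryo and under 5% in the Ler embryo were at 4.89% in the Ler endosperm and 5.45% in the Cvi endosperm over the 39 compared there, and 13 of these 39 were higher in Ler. The 1309 genes of the opposite kind were at 21.5% in the Ler endosperm and 3.33% in the Cvi endosperm, with 1001 of 1133 higher in Ler. Over all placed genes compared there, 8579 of 14136 were higher in Ler, with means of 11.3% in the Ler endosperm and 3.88% in the Cvi endosperm. Genes under 5% CG in both embryos, and so also low in Ler, had 2778 of 6930 higher in the Ler endosperm. Their means were 2.42% in the Ler endosperm and 0.859% in the Cvi endosperm. The 51 genes were chosen for a low Ler level, so their smaller share higher in Ler was partly set by that choice. In DMT2, where CG was 11.1% in Ler and 65.3% in Cvi in the embryo, the endosperms had 33.6% in Ler and 12.9% in Cvi. In RER1 they had 15.8% in Ler and 0.0845% in Cvi. By contrast PAI1 CHG was 1.23% in the Ler endosperm and 70.0% in the Cvi endosperm, close to the embryo values. Whether a difference between tissues exceeds library error was not tested, since each tissue of a strain has 1 library.

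Other embryos of the series show where the called windows stand outside the pair. At CG windows higher in Ler the Col embryo had 54.3%, between 71.3% in Ler and 6.08% in Cvi, and it was above the midpoint of the strains at 69.5% of 14717 windows. At CG windows higher in Cvi it had 39.4%, between 10.9% in Ler and 79.2% in Cvi, and was above the midpoint at 41.8% of 3282 windows. At CHG windows higher in Cvi in gene bodies Col had 14.7%, nearer to 3.99% in Ler than to 65.3% in Cvi, and was above the midpoint at 18.9% of 700. The Ler x Cvi embryo, from a Ler mother and a Cvi father, had CG of 41.1% at windows higher in Ler and 43.8% at windows higher in Cvi. In CHH it was at 13.8% where the strains had 26.1% in Ler and 6.72% in Cvi, and at 13.4% where they had 7.20% in Ler and 27.9% in Cvi, so that in either direction it lay nearer to the less methylated strain. Of all CHH calls of each library, 1.94% were methylated in the Ler x Cvi embryo, 2.03% in Ler and 3.15% in Cvi. The part of this lower library level in the CHH values was not tested. The called windows were chosen for a wide difference between the strains.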

How the data were processed

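Whole-genome bisulfite sequencing of the Ler x Ler and Cvi x Cvi embryos was analysed from the window files. Per the labels and methods, the authors checked reads with FastQC and mapped them with Bismark (version not given in the sources used here). Cvi reads were mapped to TAIR10, and those left unmapped to TAIR10 carrying Cvi substitutions. Ler reads were mapped to a Ler genome and their positions converted to TAIR10. Effects of this unequal mapping on levels were not tested. Redundant reads were removed and cytosines with at least 5 reads kept. The deposited weighted files hold the count of unmethylated calls, the count of methylated calls and the percent methylated for each 300-nt window, starting every 200 nt. The deposited window mean files hold a percent per window and served as an alternative.

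The percent of each window was computed here from the counts. Levels are unweighted means of window percentages, given with the range over the 5 chromosomes. Fisher's exact test was run with numba 0.67.0, and adjusted over all windows of a context. This test was tested on simulated data. A minimum of cytosines in the reference window was tried only as an alternative. Annotation and sequences came from RefSeq TAIR10.1, whose nuclear chromosomes match the lengths in the files. Windows were assigned to protein-coding genes first, then to pseudogenes, then to non-coding RNA genes. Transposable element annotation was not used here. Thinning drew calls without replacement down to the smaller number of the embryos in each window. Relative depth is the median number of CHG calls of a gene's windows over the median of compared windows. The endosperm level of a gene is the mean over its windows compared in the endosperm.

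Named genes were the members of the gene lists that held a called window, and, for each direction, the 4 genes with the most called windows in each context and the 4 with the largest CG-only or CHG body difference, the longest runs, and for sequences the window with the largest difference. The CG window of this kind higher in Cvi is not reported here. Members and lists were chosen with earlier results of these data known. The alternatives were other minimum depths, thinned calls, stricter thresholds, pooled calls, the window mean files, chromosome arms, the deepest windows left out and assignment by window midpoint. Python 3.11.15, numpy 2.4.6, pandas 2.3.3, scipy 1.17.1 and matplotlib 3.10.9 were used.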

Additional observations from a re-analysis of the deposited data

Results flagged for a closer look

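In CHH the strains were in opposite order in the 2 tissues. Over 224832 windows compared in both, the mean difference of Ler minus Cvi was -0.256 points in the embryo and 0.0609 points in the endosperm, where the means were 1.47% in Ler and 1.41% in Cvi. Over all windows each of the 5 chromosomes was below 0 in the embryo and above 0 in the endosperm, and the difference between tissues was not tested. By class the endosperm difference was 0.0522 points in gene bodies, 0.573 in pseudogenes, 0.0565 in non-coding RNA genes and 0.0161 outside annotated genes, where not every chromosome was above 0 in the last 2 classes. Unconverted chloroplast CHH calls were 0.217% in the Ler endosperm and 0.139% in the Cvi endosperm, and the part of this background in the result was not tested.

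Windows that reached the minimum of calls in 1 embryo and had none in the other lay outside every comparison and were methylated. In CG, 151271 windows were covered only in Ler, with a mean of 28.55%, and 8470 only in Cvi, with a mean of 60.8%. In CHG the means were 11.5% for Ler only and 42.8% for Cvi only, and in CHH 3.36% for Ler only and 10.0% for Cvi only. The CG windows covered only in Cvi lay at a median of 2.01 Mb from the centromere midpoint, against 7.40 Mb for compared windows.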

How the results depend on the processing

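The order of the strains in the mean of each context was kept under every alternative, but the sizes moved. In CG the difference of Ler minus Cvi was 3.73 points with at least 30 calls, 6.38 with no minimum, 2.33 with calls pooled over windows, 5.16 from the window mean files, 4.92 on chromosome arms and 5.24 without the deepest windows. In CHG it was -0.766, -0.537 and -2.18 points under the first 3 of these, -0.308 on the arms and -0.560 without the deepest windows. In CHH it was -0.309 with at least 100 calls, -0.232 with no minimum, -0.928 pooled, -0.250 from the window mean files, -0.115 on the arms and -0.251 without the deepest windows. With at least 30 calls, 4810 CG windows were higher in Ler and 1247 in Cvi, and 694 CHG windows in Ler and 1012 in Cvi; with no minimum, 24944 CG windows were higher in Ler and 5818 in Cvi. A threshold of 50 points left 1344 CHG windows higher in Cvi, and one of 20 points left 738 CHH windows higher in Ler and 1857 in Cvi. By construction more windows are tested with no minimum, and fewer are tested or pass in the other settings. Assigning windows by midpoint gave CG differences of 7.72 points in gene bodies and 1.84 outside genes, and CHH differences of -0.0711 in gene bodies and -0.487 outside genes. With at least 6 windows a gene, CG-only methylation in 1 strain was found in 587 genes for Ler and 14 for Cvi, and with a level of 10% in 2711 for Ler and 161 for Cvi. The other 39 alternative values moved by less than counting error or 1.5 times. No paired analysis was possible because each strain has 1 embryo library. Depth limits Cvi most: windows of fewer than 15 Cvi calls were left out.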
